A study of Peromyscus maniculatus and Peromyscus polionotus and Peromyscus maniculatus x Peromyscus polionotus with 18 samples.

Results

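Interferon-stimulated genes were followed in the brains of 2 *Peromyscus* species and their F1 hybrids, by sequencing RNA of the whole brain. The set was a list of 39 gene symbols, matched to the deposited tables without regard to case, and 35 of them were found in at least 1 table. The parental table of 20731 named genes held 34 of the 39, and the hybrid table of 11928 genes held 28; *Ifit1*, *Mx1*, *Mx2* and *Sp100* matched no row in either and were not analysed here. The animals fell into 6 groups of 3 libraries: *P. polionotus*, the oldfield mouse, and *P. maniculatus*, the deer mouse, and their F1 hybrids, each killed straight after a trial of burrowing in a large box of sand, or after a control trial. All 18 animals were males about 50 to 80 days old, the labels name no engineered allele, and each had already gone through 2 pretest trials. The labels write the hybrid as *P. maniculatus* x *P. polionotus*, but not which species was the mother.

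Type I interferons are secreted when a cell senses foreign or misplaced nucleic acid. They bind a receptor on the cell and its neighbours, and the receptor's kinases phosphorylate STAT2, which works with IRF9 to switch on a large set of genes at a shared promoter element. The products bind viral RNA, block translation, add the ubiquitin-like protein ISG15 to other proteins, and process and present antigen. In brain, microglia and endothelial cells respond strongly, and a low level of these transcripts is present without infection. In whole brain, fewer cells of a type and less RNA per cell cannot be told apart.

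The interferon genes named here were at 0 in most libraries, and no value is given here for other interferon genes. In the parental table *Ifnk* was listed at 0 in all 12 libraries, *Ifnb1* was above 0 in 1 library with a highest value of 0.565 TPM (the deposited unit, a length-scaled share of a library's transcripts), *Ifng* in 2 with a highest value of 0.0769 TPM and *Ifne* in 5 with a highest value of 1.44 TPM. The downstream genes covered a wide range of levels. *B2m*, the light chain of MHC class I, lay between 170 and 276 TPM over the 12 libraries and *Adar*, which edits double-stranded RNA, between 102 and 123 TPM. Below them came *Irf9* (31.5 to 52.0 TPM) and *Cmpk2*, a mitochondrial nucleotide kinase (29.7 to 47.1 TPM). At the low end, 8 of the 34 genes averaged under 1 TPM (*Ifih1*, *Zbp1*, *Irf1*, *Usp18*, *Rsad2*, *Psmb9*, *Xaf1* and *Rtp4*) and were left out of the parental tests, which covered 26 genes. No gene of the list was at 0 in all libraries.

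**Figure D1:**
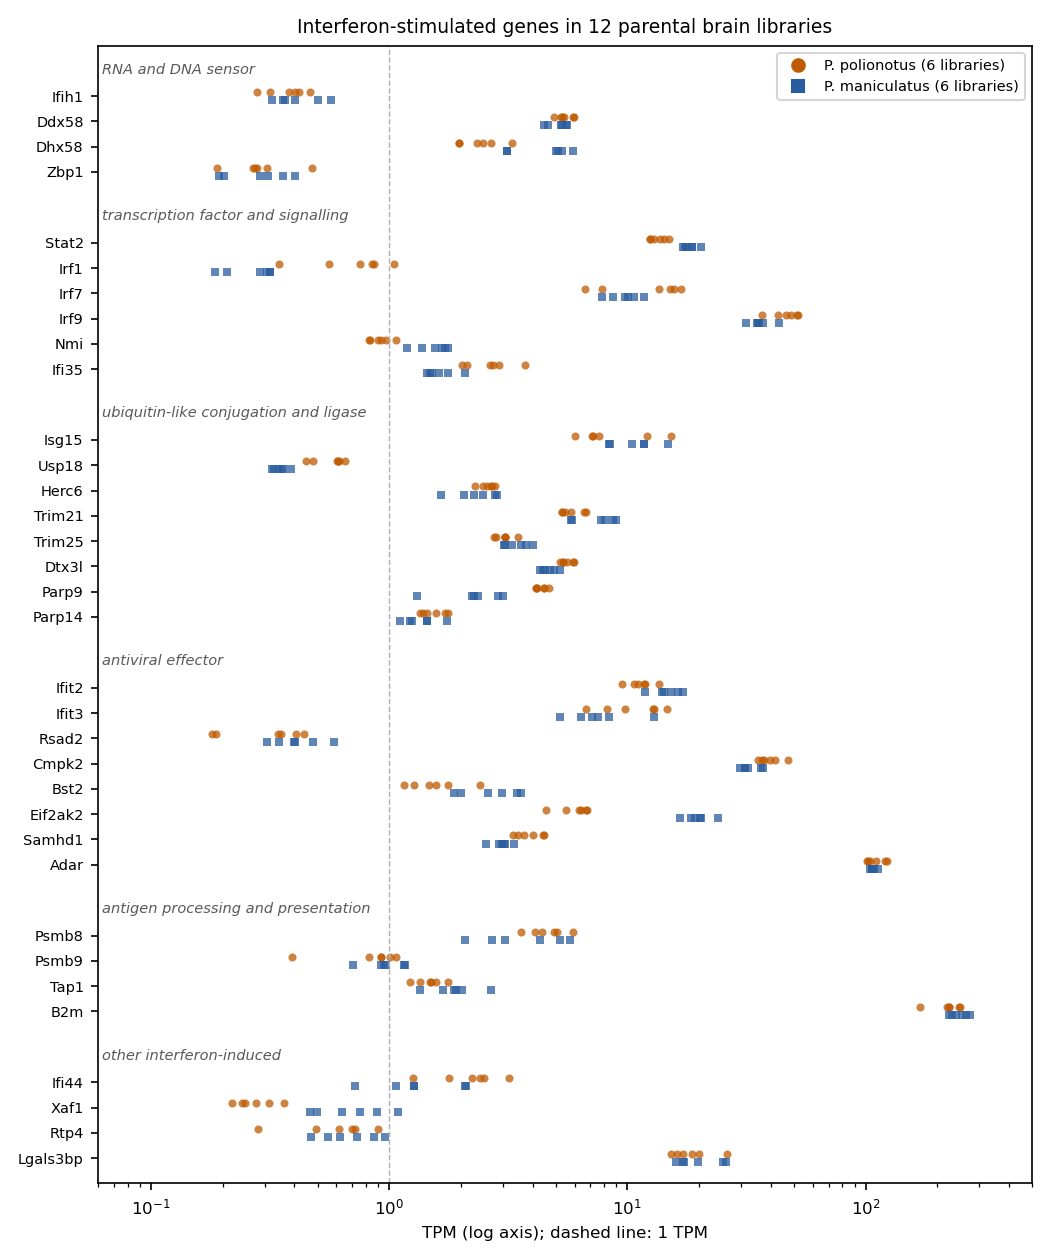
TPM on a log axis of the 34 interferon-stimulated genes in the parental table, ordered by role, with the 6 *P. polionotus* libraries (circles) above the 6 *P. maniculatus* libraries (squares) of each gene. *Eif2ak2*, *Stat2* and *Nmi* show the *P. polionotus* points wholly to the left, and *Parp9* and *Dtx3l* wholly to the right. Among genes below 1 TPM, *Xaf1* lies wholly to the left and *Irf1* and *Usp18* wholly to the right.

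Between the species, the set split evenly. Of 26 tested genes, 7 were higher and 7 lower in *P. polionotus* than in *P. maniculatus* at an adjusted p under 0.05, which is the threshold for a call throughout (limma on log2(TPM + 1), all 12 libraries, Benjamini-Hochberg over all tested genes). That is 14 of 26, against 52.4% of all 14366 tested genes, so the share was near the background. The median log2 fold change was 0.06 for the set and 0.06 for all tested genes. The even split depended on scaling. After quantile normalization 5 genes were called higher and 9 lower (all genes 3826 higher and 3857 lower). After median scaling 6 were called higher and 9 lower (all genes 3736 higher and 3959 lower).

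The gene furthest apart was *Eif2ak2*, the kinase PKR, which halts translation on binding double-stranded RNA. It lay between 4.55 and 6.80 TPM in *P. polionotus* libraries (median 6.31) and between 16.7 and 23.9 TPM in *P. maniculatus* libraries (median 19.7). The ranges did not overlap, and the log2 fold change was -1.56 (SE 0.10, adjusted p = 4.62e-07). The call held within the control animals (-1.65, adjusted p = 1.03e-05) and within the burrowing animals (-1.47, adjusted p = 2.49e-05). *Eif2ak2* matched no row of the hybrid table, so its alleles were not analysed here.

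Among the RNA sensors, *Dhx58*, the helicase LGP2 that tunes the other 2 RIG-I-like receptors, was lower in *P. polionotus*, at 1.95 to 3.27 TPM (median 2.41), against 3.12 to 5.89 TPM (median 5.06) in *P. maniculatus*. The ranges overlapped in a single *P. polionotus* library, control replicate 3, and the log2 fold change was -0.68 (SE 0.15, adjusted p = 0.00315). *Ddx58*, which encodes RIG-I, averaged 5.47 ± 0.408 TPM in *P. polionotus*, against 5.14 ± 0.477 TPM in *P. maniculatus* (SD, n = 6 each) and was not called (0.08, adjusted p = 0.352). *Ifih1*, which encodes MDA5, and *Zbp1*, a sensor of Z-form nucleic acid, reached at most 0.571 and 0.472 TPM in any library.

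Of 5 tested genes for transcription factors and signalling, 2 were higher and 2 lower. *Stat2*, the interferon-specific STAT, lay between 12.4 and 14.9 TPM in *P. polionotus* (median 13.3) and between 17.0 and 20.3 TPM in *P. maniculatus* (median 18.2). Its partner *Irf9* went the other way, with 36.9 to 52.0 TPM in *P. polionotus* (median 47.4) and 31.5 to 43.4 TPM in *P. maniculatus* (median 35.5). So within the complex that drives these genes, 1 subunit was lower without overlap (-0.42, SE 0.06, adjusted p = 0.000154) and 1 was higher with overlapping ranges (0.34, SE 0.09, adjusted p = 0.00856). *Nmi* and *Ifi35*, whose proteins bind each other, were also split: *Nmi* averaged 0.919 ± 0.093 TPM in *P. polionotus*, against 1.54 ± 0.224 TPM in *P. maniculatus* (-0.40, adjusted p = 0.000732), while *Ifi35* averaged 2.69 ± 0.611 and 1.65 ± 0.241 TPM in the same order of species (0.47, adjusted p = 0.00109; SD, n = 6 each). *Irf7*, which amplifies the interferon response, varied from 6.65 to 16.8 TPM among *P. polionotus* libraries alone and was not called (adjusted p = 0.303). *Irf1*, below the filter, had 0.344 to 1.04 TPM in *P. polionotus*, against 0.185 to 0.316 TPM in *P. maniculatus*, without overlap, and without the filter it was called higher (0.44, adjusted p = 0.000213).

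In the ubiquitin-like group, 2 of 7 tested genes were higher and 1 was lower. *Parp9* and *Dtx3l*, whose proteins work as a pair in ADP-ribosylation and ubiquitination, lie next to each other in the assembly HU_Pman_BW_mat_3.1 and both were higher without overlap. *Parp9* lay between 4.12 and 4.69 TPM in *P. polionotus* (median 4.32) and between 1.31 and 3.01 TPM in *P. maniculatus* (median 2.30), a log2 change of 0.70 (SE 0.12, adjusted p = 0.000578). *Dtx3l* averaged 5.57 ± 0.316 TPM in *P. polionotus*, against 4.68 ± 0.342 TPM in *P. maniculatus* (SD, n = 6 each), a smaller step of 0.21 (adjusted p = 0.00754). *Trim21*, a cytosolic antibody receptor and ubiquitin ligase, averaged 5.87 ± 0.623 TPM in *P. polionotus*, against 7.54 ± 1.39 TPM in *P. maniculatus* (-0.30, adjusted p = 0.0385). *Isg15*, *Herc6*, *Trim25* and *Parp14* were not called (adjusted p 0.0882 to 0.342), though *Trim25* was called lower after quantile normalization (-0.19, adjusted p = 0.00665) and after median scaling (-0.21, adjusted p = 0.00586). *Usp18*, the protease that removes ISG15, lay below the filter at 0.446 to 0.652 TPM in *P. polionotus*, against 0.323 to 0.386 TPM in *P. maniculatus*, without overlap, and was called higher without the filter (0.21, adjusted p = 0.000267).

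Antiviral effectors counted 2 higher and 3 lower of 7 tested, *Eif2ak2* among the lower. *Ifit2*, which binds viral RNA, averaged 11.4 ± 1.35 TPM in *P. polionotus*, against 14.8 ± 1.86 TPM in *P. maniculatus* (SD, n = 6 each; -0.35, SE 0.06, adjusted p = 0.000883). *Bst2*, or tetherin, which holds budding virions at the membrane, averaged 1.60 ± 0.447 and 2.74 ± 0.713 TPM in the same order of species (-0.52, adjusted p = 0.00889). *Samhd1*, which degrades deoxynucleotides, was higher at 3.89 ± 0.480 TPM in *P. polionotus* against 2.98 ± 0.260 TPM in *P. maniculatus* (0.30, adjusted p = 0.00654), and so was *Cmpk2* at 39.7 ± 4.29 against 32.9 ± 3.05 TPM (0.26, adjusted p = 0.0077). *Ifit3*, the neighbour of *Ifit2* in the assembly and a related gene whose protein forms a complex with other IFITs, had a change in the opposite direction that missed the threshold (0.41, adjusted p = 0.0636). How reads shared by such related copies were counted is not stated.

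None of the 3 tested genes of antigen processing was called by limma. *B2m* averaged 222 ± 28.4 TPM in *P. polionotus*, against 248 ± 20.2 TPM in *P. maniculatus* (SD, n = 6 each; -0.16, adjusted p = 0.148). The immunoproteasome subunit *Psmb8* and the peptide transporter *Tap1*, adjacent in the assembly, had adjusted p-values of 0.247 and 0.0859, and *Tap1* was called lower after median scaling (-0.29, adjusted p = 0.0306) and after quantile normalization (-0.26, adjusted p = 0.0414). Of the remaining genes, *Ifi44* averaged 2.22 ± 0.652 TPM in *P. polionotus*, against 1.42 ± 0.556 TPM in *P. maniculatus* (0.42, adjusted p = 0.0396), and *Lgals3bp*, a secreted glycoprotein, was not called (adjusted p = 0.645). *Xaf1*, below the filter, was at 0.218 to 0.360 TPM in *P. polionotus*, against 0.465 to 1.09 TPM in *P. maniculatus*, without overlap, and was called lower without the filter (-0.42, adjusted p = 0.00231).

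In all, 5 of the 26 tested genes did not overlap between the species, 2 higher and 3 lower, where 32.8% of all tested genes did not overlap in 1 direction or the other. Within control animals 10 genes were called (5 higher, 5 lower; all genes 39.6%) and within burrowing animals 8 (3 higher, 5 lower; all genes 34.1%). *Ifit2* was called within burrowing animals (-0.59, adjusted p = 0.000558) and not within control animals (-0.10, adjusted p = 0.386), and *Ifit3* within control animals (0.75, adjusted p = 0.0313) and not within burrowing animals (0.08, adjusted p = 0.825); the test of that difference is given with the trials. The control count fell to 6 when maniculatus control replicate 1, maniculatus control replicate 2 or polionotus control replicate 1 was left out. The calls of *Trim21* and *Ifi44* lay near the threshold, and each was lost when any of several libraries was left out. *Trim21* was not called when any 1 of 8 libraries was left out (adjusted p 0.0549 to 0.0906), the exceptions being maniculatus burrowing and control replicate 1 and polionotus control replicates 2 and 3. *Ifi44* was likewise not called when any 1 of 8 libraries was left out (adjusted p 0.0554 to 0.0897), the exceptions being replicate 3 of both maniculatus groups, polionotus burrowing replicate 2 and polionotus control replicate 2, and both scalings also ended its call.

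Genes upstream of the set were split as well. Of 30 tested genes for interferon receptors and signalling, 4 were higher and 8 lower in *P. polionotus* (median -0.03). That is 12 of 30, where 52.4% of all tested genes were called. *Tlr3*, a receptor for double-stranded RNA, averaged 10.3 ± 1.50 TPM in *P. polionotus*, against 7.01 ± 1.06 TPM in *P. maniculatus* (0.50, adjusted p = 0.00245), and *Ifnar1*, a chain of the type I interferon receptor, 19.4 ± 2.72 and 14.0 ± 1.55 TPM (0.45, adjusted p = 0.00182). The largest falls were in *Tmem173*, which encodes the DNA-sensing adaptor STING, which averaged 0.643 ± 0.206 TPM in *P. polionotus*, against 3.48 ± 0.552 TPM in *P. maniculatus* (-1.45, adjusted p = 1.23e-06), and in the feedback inhibitor *Socs3*, at 4.60 ± 0.903 and 9.95 ± 1.40 TPM (-0.97, adjusted p = 1.59e-05; SD, n = 6 each). A further list of 36 tested interferon-stimulated genes outside the set had 16 higher and 11 lower (median 0.04). That is 27 of 36, against the same 52.4% of all tested genes. The further list was led by *Shisa5* (1.13, adjusted p = 9.04e-08) and *Fbxo6* (0.96, adjusted p = 4.13e-06) upward and by *Samd9* (-0.78, adjusted p = 2.21e-05) and *Ifi44l* (-0.69, adjusted p = 0.000349) downward.

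Some markers of cells that respond to interferon also differed between the species, where 52.4% of all tested genes were called. Called were 11 of 17 tested microglia markers and 7 of 14 endothelial ones. The counts were 1 of 3 for blood and leukocytes, 6 of 11 for choroid plexus and ependyma and 7 of 12 for whole brain. The summed level of 18 microglia markers ranged from 456 to 510 TPM in *P. polionotus*, against from 330 to 430 TPM in *P. maniculatus*, without overlap. The single markers did not move together, with 6 of 17 tested higher and 5 lower: *Trem2* (1.50, adjusted p = 2.2e-06) and *Cx3cr1* (0.95, adjusted p = 0.00578) were higher, and *Gpr34* (-1.24, adjusted p = 2.14e-06) and *P2ry13* (-0.73, adjusted p = 4.26e-05) lower. For 15 endothelial markers the sums were 702 to 887 TPM in *P. polionotus*, against 838 to 950 TPM in *P. maniculatus*, with 4 of 14 tested higher, led by *Vwf* (0.58, adjusted p = 0.000129) and *Kdr* (0.47, adjusted p = 3.93e-05), and 3 lower, led by *Cldn5* (-0.63, adjusted p = 0.0403) and *Egfl7* (-0.43, adjusted p = 0.00284). Blood and leukocyte markers, 11 in number, summed to 158 to 208 and 133 to 168 TPM in the same order of species, and of the 3 tested only *Coro1a* was called (0.28, adjusted p = 0.00959). Choroid plexus and ependyma markers had 1 of 11 tested higher (*Clic6*, 0.26, adjusted p = 0.0466) and 5 lower, led by *Aqp1* (-0.70, adjusted p = 0.000387) and *Kcne2* (-0.63, adjusted p = 0.00016). The 12 markers that define whole brain were present in every library, 3 higher in *P. polionotus* (led by *Mog* at 0.53, adjusted p = 0.0353, and *Pdgfra* at 0.18, adjusted p = 0.0167) and 4 lower (led by *Gad1* at -0.31, adjusted p = 0.00131, and *Aqp4* at -0.29, adjusted p = 0.0171). No marker found in the table was at 0 in all libraries, and the part of these cell types in the differences was not tested.

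In F1 hybrids both alleles of a gene lie in the same cells, so their counts compare the parental copies within 1 animal. Whether both directions of the cross were used is not stated, so the species origin of an allele and the sex of the parent it came from cannot be told apart. The count table gave reads assigned to the polionotus or the maniculatus allele, 11415175 to 53906964 per animal, of which 52.6% to 53.1% were on the polionotus allele. Of the 28 interferon-stimulated genes in that table, 19 differed between alleles (edgeR quasi-likelihood test, animal as block), 9 with more counts on the polionotus allele and 10 with fewer. The share was 55.7% for all 11928 genes, 4074 with more counts on the polionotus allele and 2567 with fewer. The median log2 ratio was -0.23 for the set and 0.11 for all genes. When each allele column was given its own library size, the median over all genes moved to -0.07. In that setting 21 of the set were called, 6 higher and 15 lower on the polionotus allele. Of all 11928 genes 7001 were then called, 2786 higher and 4215 lower.

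The most skewed downward was *Nmi*, whose polionotus allele held 20.5% ± 3.23 of the counts (SD, n = 6 animals; range 14.5% to 23.4%), a log2 ratio of -1.94 (SE 0.12, adjusted p = 2.75e-05). *Dhx58* had 26.3% ± 4.67 (range 17.8% to 30.3%; -1.49, SE 0.14, adjusted p = 0.000228), and *Stat2* with 36.2% ± 3.15 (range 32.5% to 40.6%; -0.82, adjusted p = 0.000186). All 6 animals lay below an even share for each of these 3 genes, which were also lower in *P. polionotus* than in *P. maniculatus*. *Bst2* (33.2% ± 8.70, -1.03, adjusted p = 0.00524), at only 11 to 66 counts per animal, and *Trim21* (39.0% ± 2.61, -0.64, adjusted p = 0.000473) followed the same direction as their species difference.

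Upward, *Samhd1* had 67.4% ± 5.41 on the polionotus allele (1.05, adjusted p = 0.000904), *Ifi44* 66.5% ± 5.62 (1.0, adjusted p = 0.00173) and *Ifi35* 59.6% ± 2.74 (0.56, adjusted p = 0.00165), again in the direction of the species. *Usp18* had 65.1% ± 6.08 (0.92, adjusted p = 0.00354). *Cmpk2* (61.1% ± 8.23, 0.67, adjusted p = 0.0233) and *Ifit3* (63.2% ± 9.15, 0.76, adjusted p = 0.0236) were called less firmly. *Cmpk2* fell into sets of animals, with 67.9%, 66.0% and 71.2% in F1 burrowing replicate 2, F1 control replicate 2 and F1 control replicate 3. The others had 51.6% to 56.7%. *Kidins220*, a measured neighbour in the assembly, had 64.1%, 62.9% and 62.6% in the same order, against 55.8% to 57.8% in the others. *Id2* and *Rnf144a*, measured between them, overlapped between these sets. *Cmpk2* was not called without F1 burrowing replicate 2, F1 control replicate 2 or F1 control replicate 3 (adjusted p 0.0536 to 0.065), nor *Ifit3* without F1 burrowing replicate 2 or F1 control replicate 1 (adjusted p 0.0687 and 0.0515), and neither with an own library size per allele (0.0662 for *Cmpk2* and 0.0551 for *Ifit3*).

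In 3 genes the alleles differed clearly although the species comparison made no call: *Trim25* (35.3% ± 5.21 on the polionotus allele, -0.88, adjusted p = 0.00135), *Parp14*, a macrodomain ADP-ribosyltransferase (39.1% ± 4.69, -0.64, adjusted p = 0.00347), and *Lgals3bp* (41.3% ± 1.39, -0.51, adjusted p = 0.000117). *Ddx58* and *B2m*, described next, and *Ifit3* were also called between alleles and not between species. The remaining 9 of the 28 were not called: *Ifih1*, *Irf7*, *Isg15*, *Parp9*, *Adar*, *Psmb8*, *Tap1*, *Ifi27*, a mitochondrial protein found only in the hybrid table, and *Xaf1*. Of these, *Adar* was the most even, at 50.9% ± 0.825 and 4839 to 26751 counts per animal (0.05, adjusted p = 0.116). With an own library size per allele, *Parp9* (-0.32, adjusted p = 0.00597), *Tap1* (-0.50, adjusted p = 0.0157), *Ifi27* (-0.53, adjusted p = 0.028), *Xaf1* (-0.71, adjusted p = 0.0162) and *Adar* (-0.13, adjusted p = 0.0371) were called as lower on the polionotus allele.

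**Figure D2:**
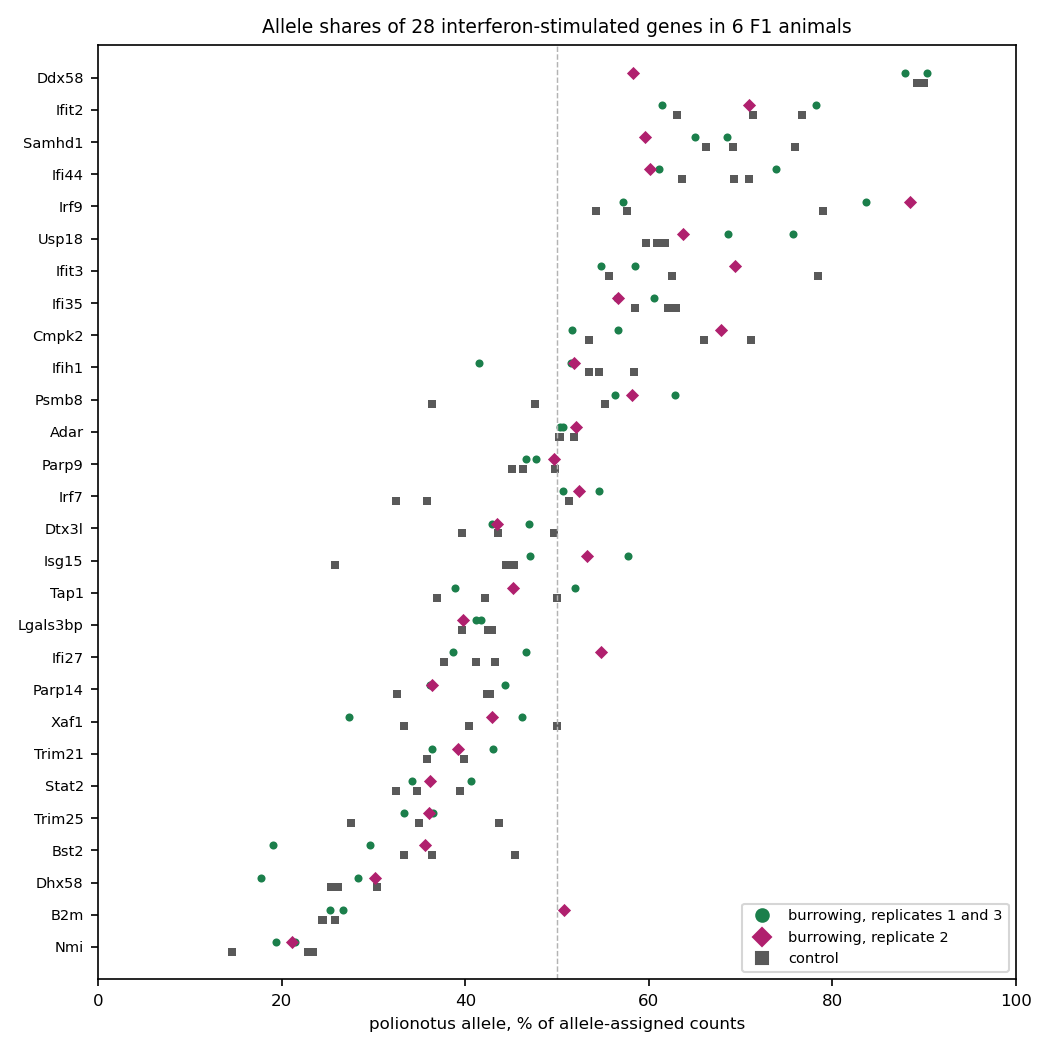
Percentage of allele-assigned counts on the polionotus allele for 28 interferon-stimulated genes in 6 F1 animals, burrowing animals above control animals within each gene, ordered by the mean share without F1 burrowing replicate 2 (diamonds). That animal lies apart for *Ddx58* (58.3%) and *B2m* (50.8%), and *Irf9* falls into 3 animals at 79.0% to 88.4% and 3 at 54.2% to 57.7%.

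*Ddx58* had the largest ratio of the set, and 1 animal stood apart in it. The polionotus allele held 90.3%, 58.3% and 87.9% of the counts in F1 burrowing replicates 1 to 3, and 89.2%, 90.0% and 89.7% in F1 control replicates 1 to 3. The 95% Wilson interval of the low value, 55.6% to 60.8%, lay far under that of the next lowest, 85.2% to 90.1%; such intervals cover counting error only. The log2 ratio was 2.66 over all animals (SE 0.42, adjusted p = 0.00229) and 3.08 without F1 burrowing replicate 2 (adjusted p = 3.42e-06). In that animal the maniculatus allele was at 19.4 CPM (counts scaled to a common library size by TMM), 6.90 times its mean of 2.81 CPM in the other 5 animals, while the polionotus allele at 27.0 CPM was 1.15 times its mean of 23.5 CPM.

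The same animal was the exception for *B2m*. The polionotus allele held 26.7%, 50.8% and 25.2% of *B2m* counts in F1 burrowing replicates 1 to 3, and 24.4%, 25.8% and 24.5% in F1 control replicates 1 to 3. The interval in burrowing replicate 2 was 49.5% to 52.1%, and the other 5 intervals together ran from 22.5% to 28.2%. Here it was the polionotus allele that was high, at 96.8 CPM against a mean of 34.4 CPM in the other 5 animals (2.81 times), with the maniculatus allele at 93.7 against 102 CPM (0.92 times). The log2 ratio was -1.30 (SE 0.25, adjusted p = 0.00473) and -1.56 without that animal (adjusted p = 3.33e-06). Of the 3 nearest measured genes on either side of *B2m* in the assembly, the furthest from its range in the other animals was *Duox1*, at 53.1% in burrowing replicate 2 and at least 57.4% in the others, on as few as 32 counts. *Eif3j*, the nearest on 1 side, had 51.5% there and 49.5% to 54.3% in the others, and *Sord*, on the other, 75.3% and 73.5% to 78.5%.

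*Irf9* fell into sets of animals that cut across the trials. Its polionotus share was 57.2%, 88.4% and 83.6% in F1 burrowing replicates 1 to 3, and 54.2%, 57.7% and 79.0% in F1 control replicates 1 to 3, so burrowing replicates 2 and 3 and control replicate 3 were high. Their 95% intervals (76.9% to 90.5% in all) did not meet those of the other 3 animals (48.4% to 62.8%). The measured neighbours of *Irf9* in the assembly were split by the same animals: *Tm9sf1* had 96.0%, 96.2% and 94.5% in those 3 and 50.6% to 52.8% in the others, and *Rnf31* had 79.9%, 81.1% and 70.4% in those 3 and 52.9% to 54.9% in the others. *Gmpr2*, 3 genes away, had 14.2% in control replicate 3 and 47.9% to 56.0% elsewhere. The *Irf9* log2 ratio of 1.38 (SE 0.44, adjusted p = 0.037) was not called without any of the 3 high animals (adjusted p 0.0676, 0.0964 and 0.0974) nor with an own library size per allele (0.0602).

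**Figure D3:**
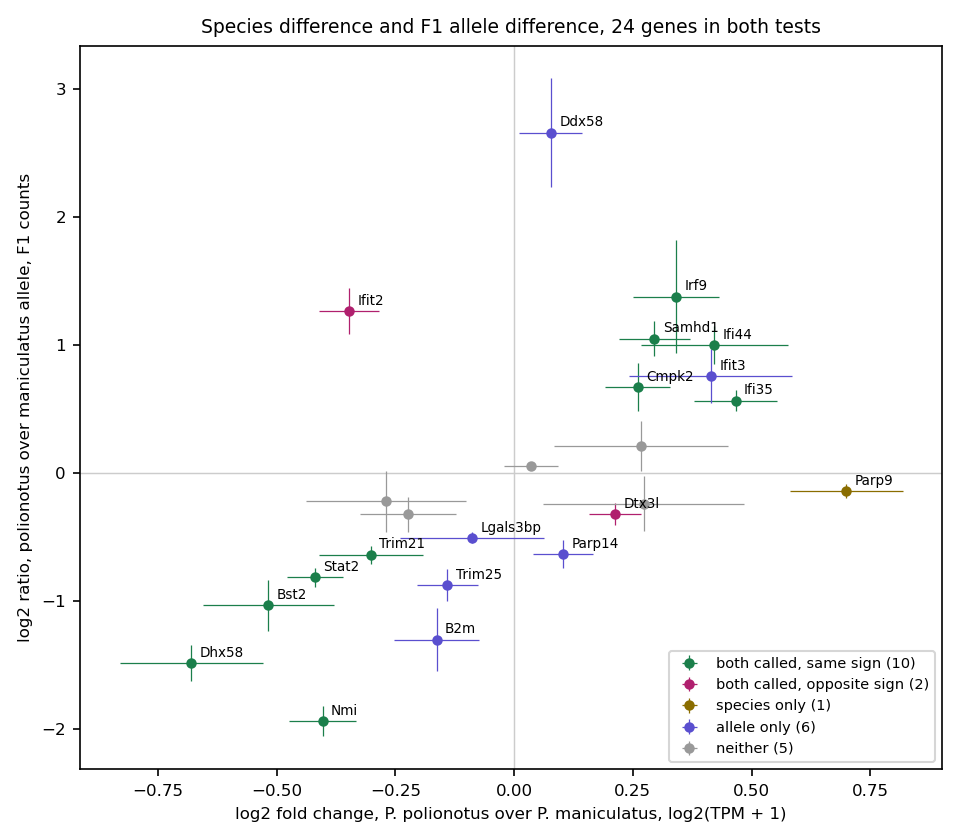
Log2 fold change between species (*P. polionotus* over *P. maniculatus*, x axis) against the log2 ratio of polionotus over maniculatus allele counts in F1 hybrids (y axis) for the 24 genes in both tests, with SE bars. Most called genes lie in the quadrants of equal sign, while *Ifit2* (-0.35 and 1.26) and *Dtx3l* (0.21 and -0.32) were called with opposite signs.

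Setting both tests side by side, 24 genes entered both. In 10 the species and the allele difference were called with the same sign, in 2 with opposite signs, in 1 the species difference alone was called (*Parp9*), in 6 the allele difference alone and in 5 neither. Of the genes called in both tests, the signs were opposite in 16.7% for the set and in 17.3% for all genes (555 of 3200). Across these 24 genes the Spearman correlation of the 2 values was 0.65 (Pearson 0.56), and across the 9987 genes in both tests 0.36 (Pearson 0.31); genes are not independent replicates, the 2 values are on different log2 scales (TPM + 1 and counts), and the parental and hybrid tables come from different animals.

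*Ifit2* was the clearest of the opposed genes. Its TPM was lower in *P. polionotus*, as given above, but its polionotus allele held 61.4%, 70.9% and 78.2% of counts in F1 burrowing replicates 1 to 3 and 71.4%, 63.1% and 76.7% in F1 control replicates 1 to 3. All 6 animals were above an even share, with a log2 ratio of 1.26 (SE 0.18, adjusted p = 0.00143), against -0.35 between the species. Within control animals the species value was -0.10 (limma adjusted p = 0.386). The *Ifit2* share was highest in F1 burrowing replicate 3 and F1 control replicate 3. There *Pank1*, a measured neighbour, had 76.2% and 74.7%, against 51.2% to 55.8% in the others. *Ifit3*, which lies between them, was lowest in the same animals (54.8% and 55.7%). *Dtx3l* was opposed by smaller margins, 44.4% ± 3.46 on the polionotus allele (-0.32, adjusted p = 0.0192) against a species value of 0.21, and its allele call did not hold without F1 burrowing replicate 1 (adjusted p = 0.0549). Its neighbour *Parp9*, higher in *P. polionotus* by 0.70, had 47.5% ± 1.92 on the polionotus allele (-0.15, adjusted p = 0.0603). Both neighbours were thus higher in *P. polionotus* and had log2 allele ratios below 0, of which that of *Dtx3l* was called.

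After the burrowing trial, no gene of the set was called in either species. In *P. polionotus*, limma called 0 of 26 (all genes 0.0%), where 4 had an unadjusted p under 0.05 (all genes 446 of 14366). In *P. maniculatus* it called 0 of 26 (all genes 0.00696%, a single gene), with 1 at an unadjusted p under 0.05 (all genes 291 of 14366). The species by trial interaction called 0 of 26 (all genes 0.0%), with 2 at an unadjusted p under 0.05 (all genes 415 of 14366). The median log2 fold change of burrowing over control animals was -0.04 for the set and -0.02 for all genes in *P. polionotus*, and -0.02 and 0.02 in *P. maniculatus*. The values of single genes nevertheless separated the trials in *P. polionotus*: 5 of 26 were lower in all burrowing than in all control libraries, where 4.23% of all tested genes were, and 0 of 26 were higher, where 2.22% of all genes were.

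Those 5 were *Isg15*, *Ifit3*, *Ifit2*, *Ifi44* (1.26 to 2.23 TPM in burrowing animals, against up to 3.17 TPM in control animals) and *Parp14* (1.34 to 1.45 TPM in burrowing animals, against 1.57 to 1.77 TPM in control animals). *Isg15* had 6.0, 7.08 and 7.18 TPM in polionotus burrowing replicates 1 to 3, against 15.3, 7.59 and 12.1 TPM in polionotus control replicates 1 to 3. The highest burrowing value lay just under the lowest control value, and the log2 fold change was -0.66 (SE 0.24, limma adjusted p = 0.998). *Ifit3* had 8.22, 9.81 and 6.70 TPM in burrowing animals, against 12.8, 12.9 and 14.7 TPM in control animals, a wider gap (-0.66, limma adjusted p = 0.998). *Ifit2* had 9.49, 11.1 and 10.6 TPM in burrowing animals, against 11.8, 11.8 and 13.5 TPM in control animals (-0.23, limma adjusted p = 0.998). *Ifi35* was the fourth tested gene at an unadjusted p under 0.05 (-0.31, limma adjusted p = 0.998), with overlapping groups. Below the filter, *Irf1* was higher without overlap, at 0.843 to 1.04 TPM in burrowing and 0.344 to 0.756 TPM in control animals. *Rtp4* was lower without overlap, at 0.282 to 0.616 and 0.698 to 0.897 TPM. Without the filter neither was called (limma, 0.31 and -0.28, unadjusted p = 0.00459 and 0.0382). The *Irf1* interaction was also not called (0.39, limma adjusted p = 0.99).

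**Figure D4:**
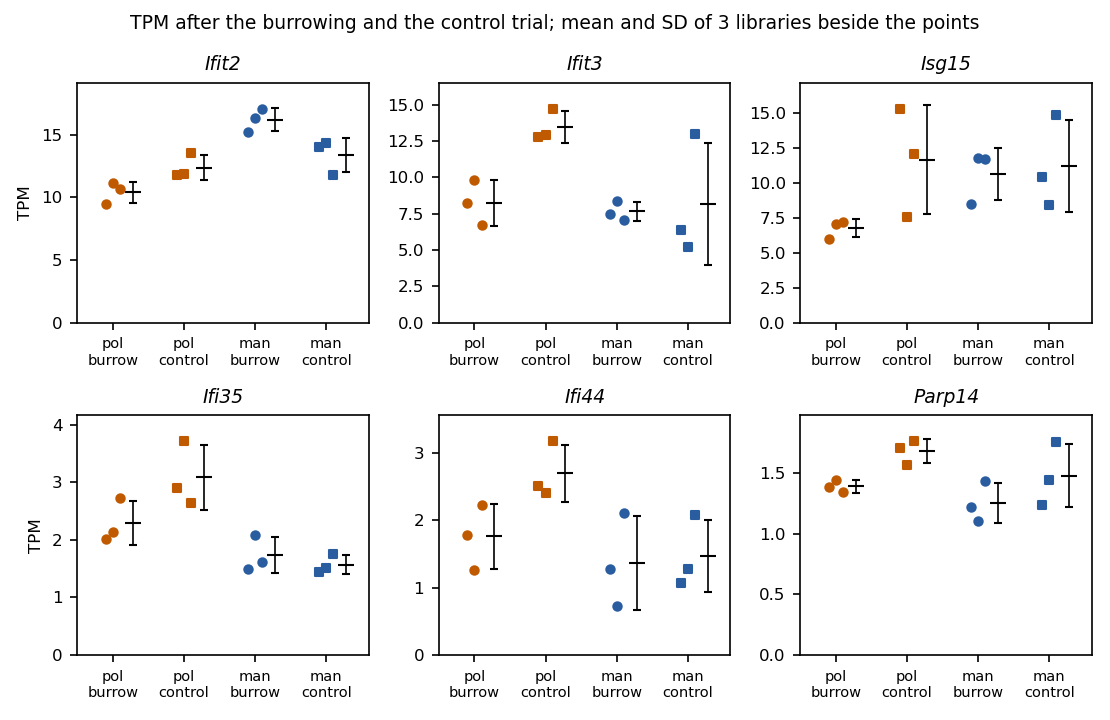
TPM of 6 interferon-stimulated genes in the 4 parental groups, burrowing left of control within each species, with single libraries as points and the mean and SD of 3 libraries beside them. In *P. polionotus* (pol) *Ifit3* lay between 6.70 and 9.81 TPM after burrowing and between 12.8 and 14.7 TPM in controls, and no gene passed the adjusted threshold.

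In *P. maniculatus* the 5 tested genes that were lower without overlap in *P. polionotus* did not share a direction. *Ifit2* was higher in burrowing animals, at 15.2, 16.3 and 17.1 TPM, against 14.0, 14.3 and 11.8 TPM in control animals, without overlap (0.26, SE 0.09, limma adjusted p = 1). It was the only gene of the set higher without overlap there (all genes 5.85%), and *Cmpk2* the only one lower (all genes 1.38%), at 29.7, 31.3 and 31.2 TPM in burrowing animals, against 32.0, 37.2 and 36.3 TPM in control animals (-0.19, limma adjusted p = 1). The gene with the third smallest p was *Parp14* (-0.13, limma adjusted p = 1). The log2 change was -0.05 for *Isg15* and 0.00 for *Ifit3* in this species, and both values rested on maniculatus control replicate 3: *Ifit3* had 7.49, 8.39 and 7.11 TPM in burrowing animals, against 6.38, 5.22 and 12.97 TPM in control animals. Without that library the change was 0.35 for *Ifit3* and 0.16 for *Isg15* (limma adjusted p = 1 for both). For *Ifit2*, the difference between the species' responses had the smallest p of the 26 tested genes, -0.49 (SE 0.13). It did not pass adjustment (limma adjusted p = 0.992). *Ifi35* (-0.39) and *Ifit3* (-0.66) followed, both also not passing. Leaving out maniculatus control replicate 3 moved the *P. maniculatus* response of *Ifit2* to 0.18 and that of *Parp14* to -0.06, and the interaction of *Ifit3* to -1.01 (limma adjusted p = 0.89).

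Single libraries moved with these patterns, and their part in them was not tested. In polionotus control replicate 3, 12 of the 26 genes (46.2%) were at their highest among the 6 libraries of the species, against 18.5% of all genes, and in polionotus burrowing replicate 1, 12 (46.2%) were at their lowest, against 28.9% of all genes. Microglia marker sums were 456 to 510 TPM in polionotus burrowing animals and 460 to 475 TPM in polionotus control animals, overlapping, and endothelial sums 702 to 820 and 730 to 887 TPM. Maniculatus control replicate 3, with the highest value of its species in 11 of 26 genes (42.3%, all genes 29.3%), had the highest microglia sum of that species (430 TPM). It was also 1 of 3 libraries apart on the second principal component (7.47% of the variance), with polionotus burrowing replicate 3 and polionotus control replicate 2; without the 3, *Isg15* and *Ifit3* in *P. polionotus* changed by -0.96 and -0.56 (limma adjusted p = 0.994 for both).

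In F1 hybrids, edgeR called 0 of 28 genes between burrowing and control animals (all genes 0.0%). No gene of the set had an unadjusted edgeR p under 0.05 (all genes 90 of 11928), and DESeq2 called 0. The 3 smallest p-values belonged to *Usp18* (0.50), *Ddx58* (0.43) and *Ifit3* (0.69), with an edgeR adjusted p of 0.965 each. *Ifit3* thus had a log2 fold change of the sign opposite to that in *P. polionotus*, and 1 animal was far above the others in it: its CPM was 2.95, 7.81 and 3.23 in F1 burrowing replicates 1 to 3, against 2.87, 3.09 and 2.78 in F1 control replicates 1 to 3. Without burrowing replicate 2 the *Ifit3* value was 0.11, that of *Ddx58* 0.16 and that of *Usp18* 0.37. The allele by trial interaction was called for 0 of 28 (all genes 0.226%) by edgeR and for 0 by DESeq2. By edgeR, 1 gene of the set had an unadjusted p under 0.05 (all genes 266 of 11928). That gene was *Irf7* (0.82, edgeR adjusted p = 1), followed by *Psmb8* (0.71) and *Usp18* (0.55).

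F1 burrowing replicate 2 stood apart in many genes of the set. It had the highest CPM of the 6 animals in 15 of 28 genes (53.6%), against 36.0% of all genes. In 7 genes it was over 1.5 times the mean of the other 5 animals and in 3 over 2 times, against 3.50% and 0.226% of all genes. The highest ratios were those of *Ifit3* (2.62), *Isg15* (2.53, at 4.17 CPM against 0.933 to 2.59 CPM in the other animals), *Ifih1* (2.03), *Parp14* (1.95), *Ddx58* (1.76) and *Ifit2* (1.60). For *Ifih1* and *Parp14* both alleles were high in this animal, 2.04 and 2.02 times for *Ifih1* and 1.77 and 2.07 times for *Parp14* on the polionotus and the maniculatus allele. Not all genes of the set were high in this animal: *Dhx58* (0.68), *Lgals3bp* (0.81), *Irf9* (0.84) and *Adar* (0.84) were below the mean of the others. Among further interferon-stimulated genes outside the set, the animal was highest in 11 of 35 (31.4%). The median log2 of its CPM over the mean of the others was -0.07 for that list. Among genes for interferon receptors and signalling it was highest in 11 of 29 (37.9%), with a median of 0.06. Microglia marker counts in this animal summed to 620 CPM, against 521 to 626 CPM in the other 5, and endothelial ones to 945 CPM, against 924 to 1063 CPM. Counted by gene, though, the animal was highest in 7 of 14 endothelial markers (50.0%) and in 7 of 16 microglia markers (43.8%). The median log2 of its CPM over the mean of the others was 0.29 for the set, 0.24 for endothelial, 0.10 for microglia, -0.39 for choroid plexus and ependyma and -0.38 for whole-brain markers, and 0.01 for all genes. The part of these cell types in the values of this animal was not tested.

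**Figure D5:**
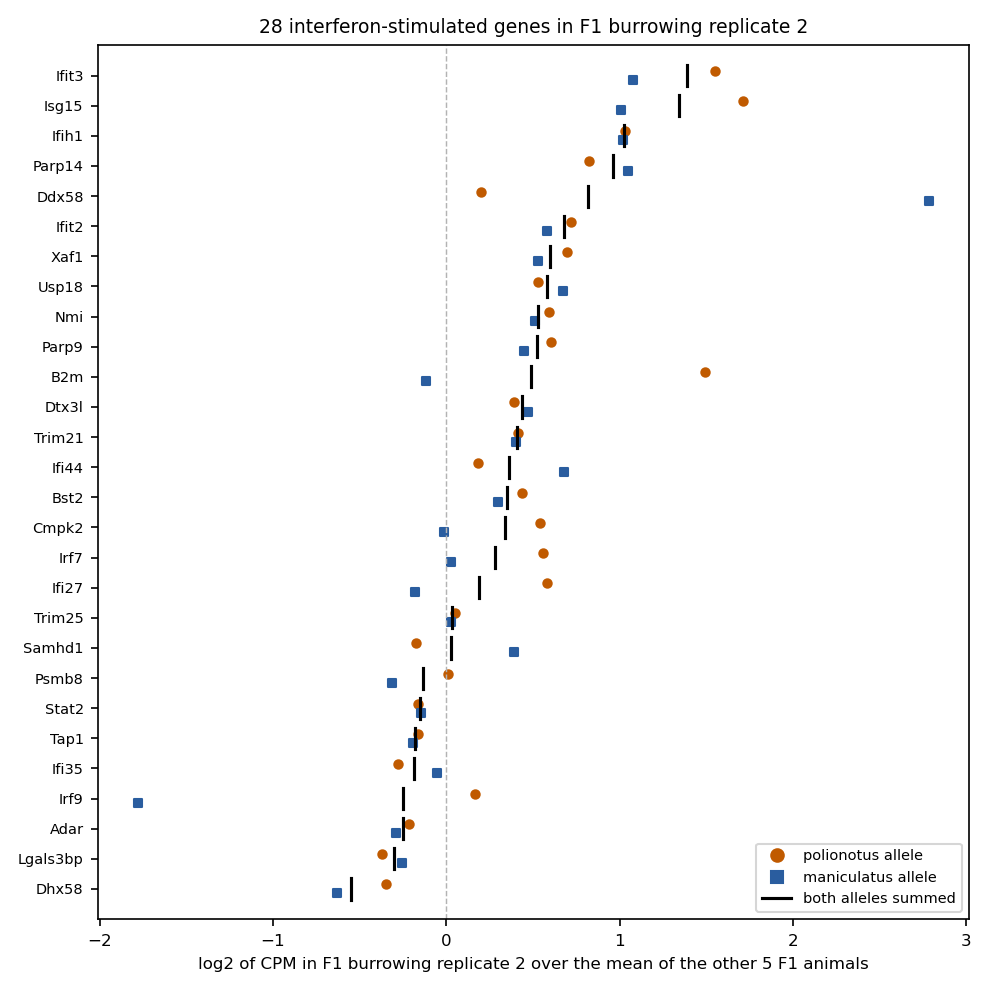
Log2 of CPM in F1 burrowing replicate 2 over the mean of the other 5 F1 animals, for 28 interferon-stimulated genes, with the polionotus allele (circles), the maniculatus allele (squares) and their sum (bars). *Ifit3*, *Isg15* and *Ifih1* were over 2 times the mean, *Ddx58* was high on the maniculatus allele (6.90 times) and *B2m* on the polionotus allele (2.81 times).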

How the data were processed

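The 39 genes and all comparison lists were chosen with earlier results of these data known. For the 12 parental libraries the authors deposited TPM per gene, and for the 6 hybrids they deposited counts for each allele of each gene, the smallest of which was 2. Reads were aligned with STAR 2.4.2a, per the submitters' processing notes; the genome build, the annotation, whether both species were aligned to 1 reference, and the allele assignment, were not stated. TPM keep no depth, so only the spread of libraries shows parental precision. A library was taken as 1 animal, as the protocols imply; no label states separate litters, and p-values measure the spread between these samples. 1 row of the TPM table that names no gene (0.789% to 2.48% of a library's TPM) was left out.

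Parental values were tested with limma 3.58.1 in R 4.3.3 on log2(TPM + 1), which understates changes of low genes, for genes averaging 1 TPM or more, with 1 mean per group. Allele counts were tested with edgeR 4.0.16 (quasi-likelihood F test, animal as block, the sum of both alleles as library size, mean of at least 20 counts), and summed counts between trials with TMM scaling. All tests were two-sided, with Benjamini-Hochberg adjustment over all genes tested. SE of edgeR values were derived from the F statistic. Scripts were tested on simulated data. Genes called between species or alleles are described singly, as are the 3 smallest p-values of each trial comparison and, per further list and direction, the 2 largest called species differences; other values named were chosen after they were seen. Alternatives were other pseudocounts (0.1 and 5), filters and scalings, DESeq2 1.42.0, a replicate block, and each library left out; leaving out 3 libraries together was chosen after seeing the data. Gene order came from assembly HU_Pman_BW_mat_3.1, whose table holds 32 of the 39 symbols; no coordinates or sequences were used here.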

Additional observations from a re-analysis of the deposited data

Results flagged for a closer look

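Of 108 groups of 4 or more samples in the set that could be examined (CPM and polionotus share over all 6 F1 animals, and TPM over the 6 libraries of each species), 7 held a sample whose gap to the rest passed Dixon's 95% critical value; chance flags about 1 in 20 groups. In all 7 the sample was F1 burrowing replicate 2. It was high in CPM for *Ifih1* (4.61, against 1.97 to 2.57 in the other 5 animals), *Ddx58* (46.4, against 23.4 to 30.6), *Trim21* (16.0, against 11.5 to 13.2), *Parp14* (19.8, against 7.72 to 11.7) and *Ifit3* (7.81, against 2.78 to 3.23). It was low in the polionotus share of *Ddx58* (58.3%) and high in that of *B2m* (50.8%). The same criterion put this animal apart and high for 6.95% of all genes and for 5 of the 28 genes here.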

How the results depend on the processing

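Genes of the set called between species numbered 12 to 17 over all alternatives (14 as reported), within control animals 6 to 12 (10), within burrowing animals 6 to 11 (8) and between F1 alleles 17 to 21 (19); in the trial comparisons and interactions the count stayed at 0 in every alternative. With each library left out in turn, control animals gave 6 to 11. No called value changed sign; *Adar*, not called as reported (0.05), was -0.13 and called with an own library size per allele, and *Isg15* in *P. maniculatus* (-0.05) was 0.16 without maniculatus control replicate 3. Called genes that lost their call in some alternative were *Bst2*, *Cmpk2*, *Ifi44* and *Trim21* between species and *Cmpk2*, *Dtx3l*, *Ifit3* and *Irf9* between alleles; *Bst2* lost it without the 3 libraries apart on the second component (adjusted p = 0.0773), as did *Trim21* (0.15), and the species call of *Cmpk2* under quantile normalization (0.0502). Over all genes, the trial calls in *P. maniculatus* (1 gene) were 0 with a pseudocount of 0.1 or with only the groups compared, and 1 to 6 with single libraries left out. Those in *P. polionotus* (0) were 3 with no expression filter and 0 to 2 with single libraries left out. The species by trial interaction (0) gave 1 with a pseudocount of 5, 1 with no filter and 0 to 2 with libraries left out. In F1 hybrids DESeq2 called 2 genes between trials (0 by edgeR) and 60 for the allele by trial interaction (27 by edgeR), which ran from 10 to 73 with animals left out; the causes were not tested. Deviations of same-numbered replicates from their group means correlated at -0.57 to 0.25. With 3 libraries per group these values cannot settle whether replicate numbers pair the samples. With a replicate block, 14 genes of the set were called between species, 12 in control and 10 in burrowing animals. Of all 14366 tested genes, 7764, 5927 and 5171 were then called in the same order, against 7529, 5696 and 4901 as reported. Depth limits the low genes: *Bst2* and *Xaf1* had as few as 11 allele-assigned counts in an animal.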
